A study of Mus musculus with 12 samples.

Results

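Retinas of 3 mouse genotypes received NMDA or phosphate-buffered saline (PBS), and the genes that moved the same way after NMDA in each genotype are described here. The gene table lists 55487 genes in FPKM (fragments scaled to transcript length and to the mapped fragments of the library), of which 16471 passed a limit of 1 FPKM on the highest of the 6 group means and were tested. The 6 NMDA libraries were compared with the 6 PBS libraries on log2(FPKM + 0.1) with genotype as a block, by limma's moderated test. A gene was called where the p adjusted after Benjamini and Hochberg was under 0.05 and the log2 difference was beyond 1 in either direction, that is, more than 2-fold. It was taken as shared where the NMDA effect of each genotype, from 1 fit of all 6 groups, also had an adjusted p under 0.05 in that direction. By this rule 239 genes (1.45% of those tested) were shared, 98 higher (0.595%) and 141 lower (0.856%) after NMDA. The directions of these genes were set by the rule, so their values describe them and are no separate evidence for them.

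NMDA is an agonist of the NMDA-type glutamate receptor, an ion channel that admits calcium. Overstimulation of this receptor kills neurons of the inner retina, above all retinal ganglion cells (RGCs), whose axons form the optic nerve, and amacrine cells, the inhibitory interneurons next to them. Müller glia, which span the retina, and microglia, its resident phagocytes, are known to react to such injury. PAX6 is a transcription factor that mature RGCs, amacrine cells and horizontal cells express. JNK3, encoded by Mapk10, is the stress-activated kinase of the JNK family that is found mainly in neurons, and its best known substrate is c-Jun, a subunit of the AP-1 transcription factor.

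The wild type (WT) group was C57BL/6J (B6J) mice. The shPax6 group was mice infected with AAV2.7m8 that carried GFP and an shRNA against Pax6 driven by the U6 promoter, which is active in most cell types. The JNK3 KO group was Jnk3-/- mice, which lack the kinase in every cell. Each genotype gave 2 libraries after 1 µL of PBS and 2 after 1 µL of 40 mM NMDA (40 nmol) injected into the vitreous. A library was made from pooled RNA of more than 3 retinas. The p-value of a genotype comes from 1 fit of all 6 groups, also where a genotype is called alone or on its own below. It measures the spread between pools over all groups, not that of this genotype only. The median absolute log2 difference between replicates was 0.22 and 0.25 in shPax6 (PBS, NMDA), against 0.14 and 0.11 in JNK3 KO retinas. The residual of the fit with genotype as a block also holds differences of the NMDA effect between genotypes. Its p-values and standard errors therefore measure both. The time between injection and collection is not given in the text of the sources used here, and the stated age is 2 months. No library of retinas with the shScramble control vector is among the 12, so infection and knockdown cannot be told apart. FPKM hold no read counts, and the depth behind each value is unknown.

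The WT PBS libraries held Pax6 at 173.48 and 177.3 FPKM, against 94.56 and 92.84 FPKM after PBS in shPax6 retinas. For Mapk10 the levels were 42.79 and 50.72 FPKM in WT PBS libraries, against 9.47 and 8.75 FPKM after PBS in JNK3 KO retinas. Mapk10, not targeted in shPax6 retinas, was also lower there after PBS than in WT, at 20.86 and 21.33 FPKM. A lower level in shPax6 retinas is thus not particular to Pax6, and what lowered Pax6 was not tested. After PBS both targeted genes were lower in their own group than in WT. After NMDA they were not: Pax6 lay at 67.52 and 58.73 FPKM in shPax6 against 55.42 and 53.81 FPKM in WT retinas, and Mapk10 at 6.65 and 13.77 FPKM in JNK3 KO against 8.98 and 6.0 FPKM in WT retinas. The Müller glia gene Rlbp1 lay between 49.1 and 115 FPKM in all 12 libraries, the amacrine gene Gad1 between 20.1 and 107.5 FPKM, and the cornea gene Krt12 at or under 0.32 FPKM. The lens gene Cryaa was present at 26.2 to 79.3 FPKM. The WT NMDA libraries stood apart, with FPKM sums of 805627 and 820180 against 541210 to 576922 in the other 10 libraries. Mitochondrially encoded genes took 2.98% to 3.02% of these sums in WT NMDA libraries against 8.44% to 8.52% after PBS, but 9.64% to 10.2% against 6.46% to 7.08% in JNK3 KO retinas. The NMDA effect over the genes tested also followed gene length: Spearman's rho between effect and spliced length across genes was -0.45 in WT, -0.11 in shPax6 and 0.20 in JNK3 KO retinas. S100a8, a neutrophil gene, lay at 644.65 to 720.81 FPKM in WT NMDA and at 92.61 to 107.55 FPKM in WT PBS libraries, and at 5.29 to 6.42 against 57.29 to 65.6 FPKM in JNK3 KO retinas, so this cell type's marker moved in opposite directions. The part of these differences in the results below was not tested, other than by the fits without a genotype and with other scalings.

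The blocked fit called 814 genes (4.94%), 302 higher (1.83%) and 512 lower (3.11%). Without the WT, shPax6 or JNK3 KO libraries it called 428, 311 and 1967 genes, and with FPKM rescaled to TPM the split moved to 171 higher and 690 lower. Taken alone, WT retinas had 9855 genes with an adjusted p under 0.05 (59.8%, with 26.0% higher, 33.8% lower), shPax6 retinas 4967 (30.2%, with 19.1% higher, 11.0% lower) and JNK3 KO retinas 1718 (10.4%, with 4.33% higher, 6.1% lower). The shared rises were therefore 2.29% of all WT rises, 3.11% of those in shPax6 and 13.7% of those in JNK3 KO retinas. The shared falls were 2.53%, 7.76% and 14.0% of the falls in the same order. A further 171 genes, 64 higher and 107 lower, passed the test in the same direction in each genotype but with a blocked difference of 1 or less. Just inside this limit lay Cx3cl1 at -1.004, and just outside it Ankrd34a at -0.99. Under TPM the shared genes were 61 higher and 193 lower, and 153 genes (0.929%), 54 higher (0.328%) and 99 lower (0.601%), were shared on the deposited scale and also under TPM, 75th-percentile scaling, quantile normalization and a correction for gene length.

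Across all 16471 genes the NMDA effects of the genotypes were little alike. Pearson's r between effects was 0.23 for WT and shPax6 retinas, -0.06 for WT and JNK3 KO and 0.06 for shPax6 and JNK3 KO, given as a description because genes are not independent and each effect rests on 4 libraries. The 3 comparisons share no library. Of 3381 genes past the test in both WT and shPax6 retinas, 77.4% moved the same way. That share was 71.2% of 1049 genes for shPax6 and JNK3 KO, and 40.0% of 1371 genes for WT and JNK3 KO. Of 810 genes past the test in all 3, 411 (50.7%) had 1 direction throughout, and 57.3% after the length correction. Of the 1371 genes past the test in both WT and JNK3 KO retinas, more moved apart than together. After the length correction the share that moved together was 53.04% of 1135 such genes.

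**Figure D1:**
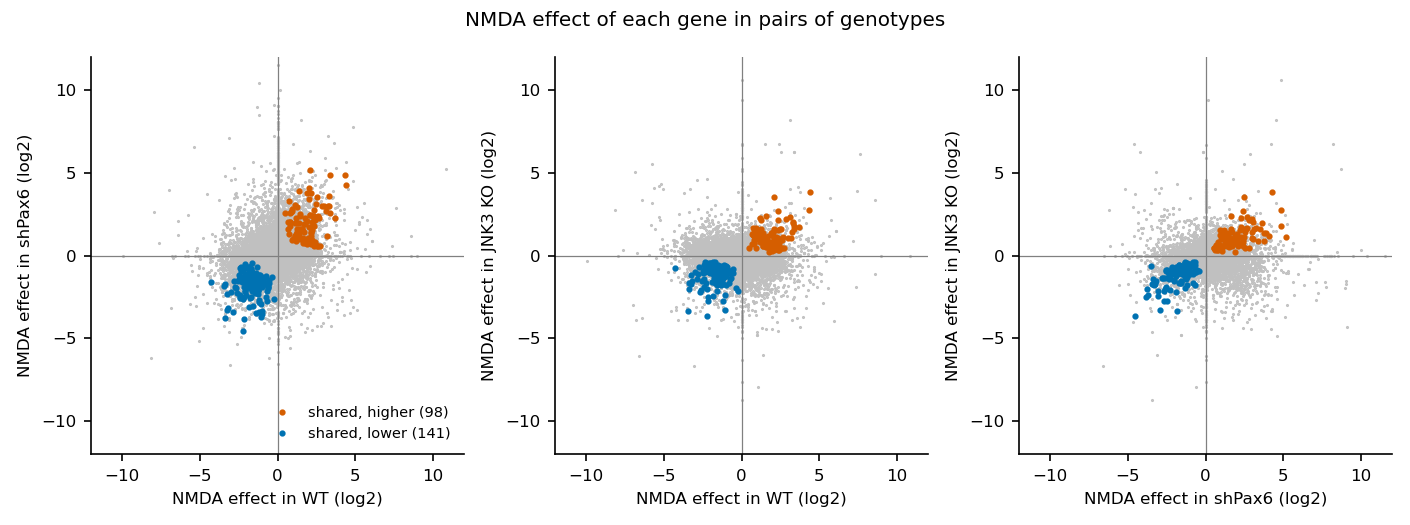
NMDA effect (NMDA minus PBS, log2 of FPKM + 0.1) of each of 16471 genes in pairs of genotypes, 1 point per gene, with the 98 shared rises in orange and the 141 shared falls in blue. The grey cloud is nearly round (Pearson's r 0.23, -0.06 and 0.06 from left to right), and the shared genes fill opposite quadrants because the rule placed them there.

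All 239 shared genes had both NMDA libraries beyond both PBS libraries in each genotype. The rule made this likely, as it drew on the same values, so it is no separate evidence for them. Of all tested genes 1857 (11.3%) had it. Among called genes 651 (3.95% of those tested), 222 higher (1.35%) and 429 lower (2.6%), were separated in this way. A stricter set of 101 genes (0.613%), 44 higher (0.267%) and 57 lower (0.346%), changed by more than 2-fold in every genotype. The smallest of the 3 changes was that of JNK3 KO retinas in 165 of the 239 shared genes, of WT in 52 and of shPax6 in 22. Over all 16471 genes tested the smallest absolute change, whatever its direction, was that of JNK3 KO in 8758. The median shared rise was 1.91 in WT, 1.93 in shPax6 and 1.02 in JNK3 KO retinas on the log2 scale, and the median shared fall was -1.66, -1.63 and -0.99. Median spliced length was 2688.5 bases for the shared rises, 4839 bases for the shared falls and 3916.5 bases for all genes tested. Protein-coding genes made up 233 of the 239 (97.5%), against 84.3% of all genes tested.

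**Figure D2:**
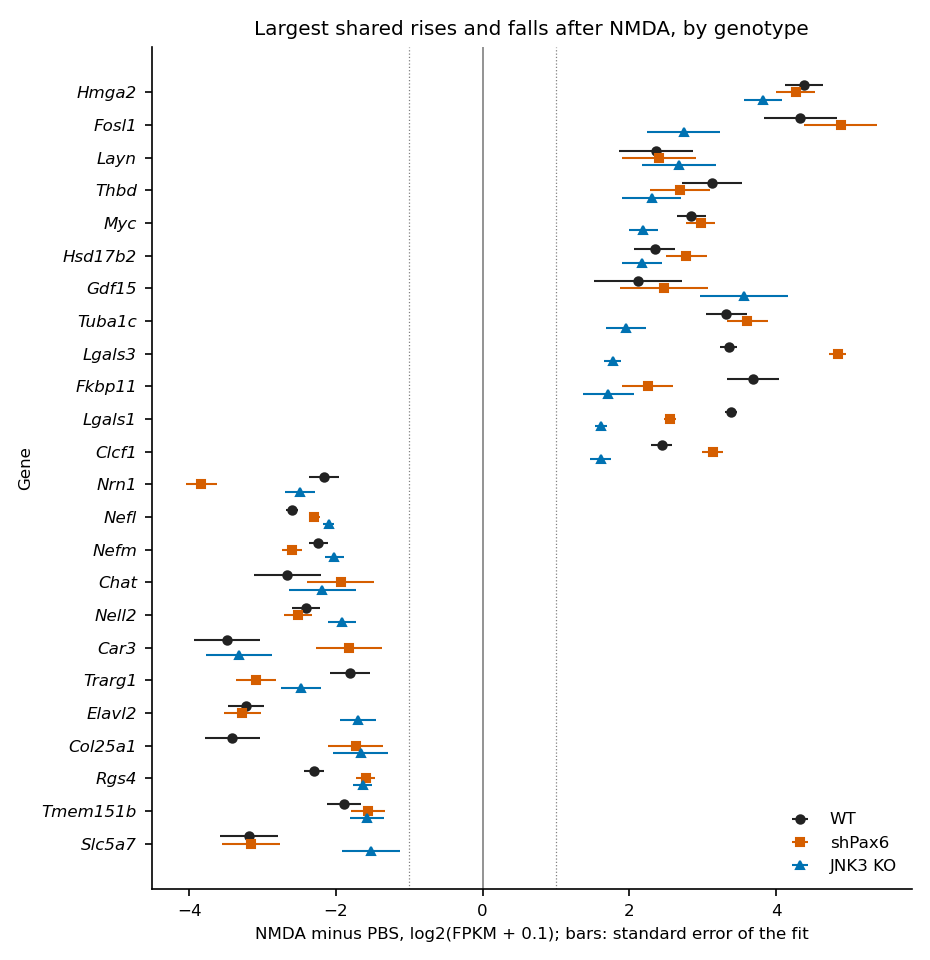
NMDA minus PBS on log2(FPKM + 0.1) in each genotype for the 12 largest shared rises and the 12 largest shared falls (protein-coding, no group mean under 0.1 FPKM), ranked by the smallest of the 3 effects, with bars of 1 standard error of the fit (2 NMDA and 2 PBS libraries per genotype). Every symbol lies beyond the dotted lines at -1 and 1, with rises from 1.61 for Clcf1 in JNK3 KO to 4.88 for Fosl1 in shPax6 retinas, and the JNK3 KO symbols often lie closest to 0.

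Genes of RGCs, among them both neurofilament genes below, were the list with the most shared falls. Nefl, which encodes the light neurofilament protein of large axons (chromosome 14, 68083863 to 68089095, GRCm38), was listed at 162.46 and 160.25 FPKM in WT PBS and 27.66 and 25.52 in WT NMDA libraries, at 40.54 and 35.34 against 7.56 and 7.73 FPKM in shPax6, and at 140.69 and 138.47 against 32.58 and 32.34 FPKM in JNK3 KO retinas. Within each genotype the PBS and NMDA libraries were far apart, while the shPax6 PBS libraries were already near the NMDA level of the other genotypes. The blocked log2 difference was -2.33 (standard error 0.10, adjusted p = 9.8e-07), and -2.60, -2.29 and -2.10 in WT, shPax6 and JNK3 KO. Nefm, the medium neurofilament protein, fell by 2.29 (standard error 0.12, adjusted p = 4.8e-06), and its 3 effects between -2.60 and -2.02 did not differ by the interaction test (adjusted p = 0.065). In bulk tissue fewer cells of a type and less RNA per cell cannot be told apart.

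Nrn1, which encodes neuritin, a small membrane-anchored protein of RGCs and other neurons that promotes neurite growth (chromosome 13, 36725361 to 36735131), was listed at 36.15 and 37.95 FPKM against 7.96 and 8.39 FPKM in WT, at 16.5 and 14.83 against 0.75 and 1.33 in shPax6, and at 32.73 and 32.69 against 6.02 and 5.47 in JNK3 KO retinas, PBS before NMDA. It had the largest fall of the named genes by its weakest genotype, with effects of -2.17, -3.84 and -2.49 and a blocked difference of -2.83 (standard error 0.25, adjusted p = 0.00021). Of the 18 RGC genes listed, all were tested, 13 were called lower and none higher, and 6 were shared falls: Nrn1, Nefl, Nefm, Chrna6, Sncg and the transcription factor Pou4f3. Over all genes tested 3.11% were called lower and 0.856% were shared falls. For rises the shares were 1.83% and 0.595%, and these shares apply to each list below. By genotype, 14, 14 and 12 of the RGC genes passed the test lower in WT, shPax6 and JNK3 KO retinas (33.8%, 11.0% and 6.1% of all genes tested). Higher were 1, 0 and 0 (26.0%, 19.1% and 4.33% of all genes tested). The list median was -1.68 over the genotypes and -1.86, -2.30 and -1.45 in WT, shPax6 and JNK3 KO, against 0.00052 for all genes tested. Pou4f3 was low throughout, at 0.95 to 2.54 FPKM after PBS and 0 to 0.72 FPKM after NMDA, and the differences of such low genes depend on the added 0.1. It too was not shared under each of the other scalings. Its relatives Pou4f1 and Pou4f2, at -2.33 and -2.41 in the blocked fit, were called lower but were not past the test in every genotype. The summed level of the list fell from 847 to 875 FPKM to 538 to 550 FPKM in WT, from 292 to 294 FPKM to 106 to 123 FPKM in shPax6, and from 815 to 852 FPKM to 256 FPKM in JNK3 KO retinas.

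Of 17 amacrine genes 9 were called lower, none higher, and 3 were shared falls, among them Calb2 and Chat. Chat, the enzyme that makes acetylcholine in starburst amacrine cells, was listed at 6.35 and 5.16 against 1.33 and 0.49 FPKM in WT, at 3.24 and 5.84 against 0.77 and 1.46 FPKM in shPax6, and at 5.58 and 5.18 against 1.1 and 1.11 FPKM in JNK3 KO retinas. Its effects of -2.66, -1.93 and -2.18 gave a blocked difference of -2.26 (standard error 0.28, adjusted p = 0.00077). Slc5a7, the choline transporter of the same cells, fell by 2.62 (adjusted p = 0.00095), though it was not shared under each of the other scalings. Calb2, which encodes the calcium buffer calretinin of amacrine cells and some RGCs, was listed at 264.98 and 285.41 against 130.05 and 132.21 FPKM in WT, at 144.58 and 148.27 against 12.12 and 10.48 FPKM in shPax6, and at 297.14 and 284.97 against 57.44 and 55.28 FPKM in JNK3 KO retinas. WT retinas kept the highest level after NMDA, and the effects of -1.07, -3.69 and -2.37 differed by the interaction test (adjusted p = 8.4e-07). The medians of the amacrine list were -1.29, -1.83 and -0.45 in the 3 genotypes, and 12, 15 and 5 of its genes passed the test lower in WT, shPax6 and JNK3 KO retinas on their own, with 1, 0 and 1 higher. Over all genes tested 33.8%, 11.0% and 6.1% passed it lower in that order, and 26.0%, 19.1% and 4.33% higher.

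Synaptic and membrane excitability genes followed. Of 24 presynaptic genes 7 were called lower, and 5 of these were shared, among them Cplx1, Cplx2, Rph3a and Syn2. Cplx1, which encodes complexin 1, a regulator of vesicle fusion at conventional synapses, was listed at 64.56 and 66.39 against 21.27 and 21.45 FPKM in WT, at 13.33 and 14.32 against 6.21 and 5.6 FPKM in shPax6, and at 55.76 and 57.32 against 15.93 and 16.89 FPKM in JNK3 KO retinas. Here JNK3 KO retinas had the largest effect, -1.78 against -1.61 in WT and -1.21 in shPax6 (blocked -1.53, standard error 0.11, adjusted p = 3.6e-05). Cplx2 and Rph3a fell by 1.49 and 1.47 (adjusted p = 0.00039 and 0.00026). Cplx4, the complexin of photoreceptor ribbon synapses, stood at -0.02 in the blocked fit. Of 22 voltage-gated channel genes 13 were called lower and 5 shared, among them the sodium channel genes Scn1a, Scn2b and Scn3b and the potassium channel gene Kcnc1. Scn3b had effects of -1.73, -2.49 and -0.89 (blocked -1.70, adjusted p = 0.0018) and Scn2b of -1.59, -2.06 and -0.85 (adjusted p = 0.0011). The channel list had the longest genes of these lists (median spliced length 11282 bases), and after the length correction its median moved from -1.42 to -1.11.

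No gene of the glutamate, GABA and glycine receptor lists was a shared fall. Over all genes tested 0.856% were, so 0 in such short lists is no result about receptors. Of 15 glutamate receptor genes tested 6 were called lower, against 3.11% of all genes tested. Of these 15, 0 were shared, with medians of -1.91 in WT, -0.99 in shPax6 and -0.23 in JNK3 KO retinas. At an unadjusted p under 0.05 in limma's blocked test and in each genotype, 2 were shared. Grin2a and Grin2b, which encode subunits of the NMDA receptor, had blocked differences of -2.23 and -1.57, but JNK3 KO values of -0.98 and -0.54 that did not pass the test on their own. Of 18 GABA and glycine receptor genes 6 were called lower and 0 were shared (2 at the unadjusted p), with medians of -2.03, -1.01 and -0.17.

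The remaining large shared falls spanned other functions. Elavl2, a neuronal RNA-binding protein, had effects of -3.23, -3.27 and -1.70 (adjusted p = 0.00034). Rgs4, a brake on G protein signaling, was listed at 31.99 to 34.3 against 6.53 to 6.74 FPKM in WT, 7.88 to 9.3 against 2.46 to 3.11 FPKM in shPax6 and 28.54 to 29.89 against 9.28 to 9.38 FPKM in JNK3 KO retinas. Nell2, a secreted neuronal glycoprotein, fell by 2.28 with effects between -2.52 and -1.92 that did not differ by the interaction test (adjusted p = 0.16). Col25a1, a membrane collagen of neurons, had effects of -3.41, -1.73 and -1.66, and Car3, a carbonic anhydrase, of -3.48, -1.83 and -3.32. Trarg1, which takes part in glucose transporter trafficking in fat, fell by 2.46, and Tmem151b by 1.67. Both were lower in all NMDA libraries than in all PBS libraries of their genotype, as was every shared fall.

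The shared falls also held 2 genes of the outer retina. Opn1sw, the short-wavelength cone opsin, was listed at 110.85 and 117.04 against 61.81 and 52.36 FPKM in WT, at 382.51 and 334.38 against 35.17 and 27.97 FPKM in shPax6, and at 114.07 and 110.4 against 72.08 and 70.33 FPKM in JNK3 KO retinas. The shPax6 PBS libraries were the highest of the 12, and shPax6 NMDA libraries the lowest. Its effects were -1.0, -3.51 and -0.66 (blocked -1.72, adjusted p = 0.02), and without shPax6 PBS replicate 2 it was -1.52 and no longer called. Arr3, cone arrestin, had effects of -0.69, -2.74 and -1.36 (blocked -1.59, adjusted p = 0.0045). They were 2 of 12 cone genes, and the other 10 were not called. Limma's test called 0 of 22 rod, 17 bipolar and 5 horizontal cell genes, and at an unadjusted p under 0.05 with a 2-fold change 1 rod, 0 bipolar and 1 horizontal cell gene, each lower. Their medians differed in sign between genotypes: rod genes stood at 0.38 in WT, -0.64 in shPax6 and -0.30 in JNK3 KO retinas, and bipolar genes at -0.46, -0.14 and 0.16.

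**Figure D3:**
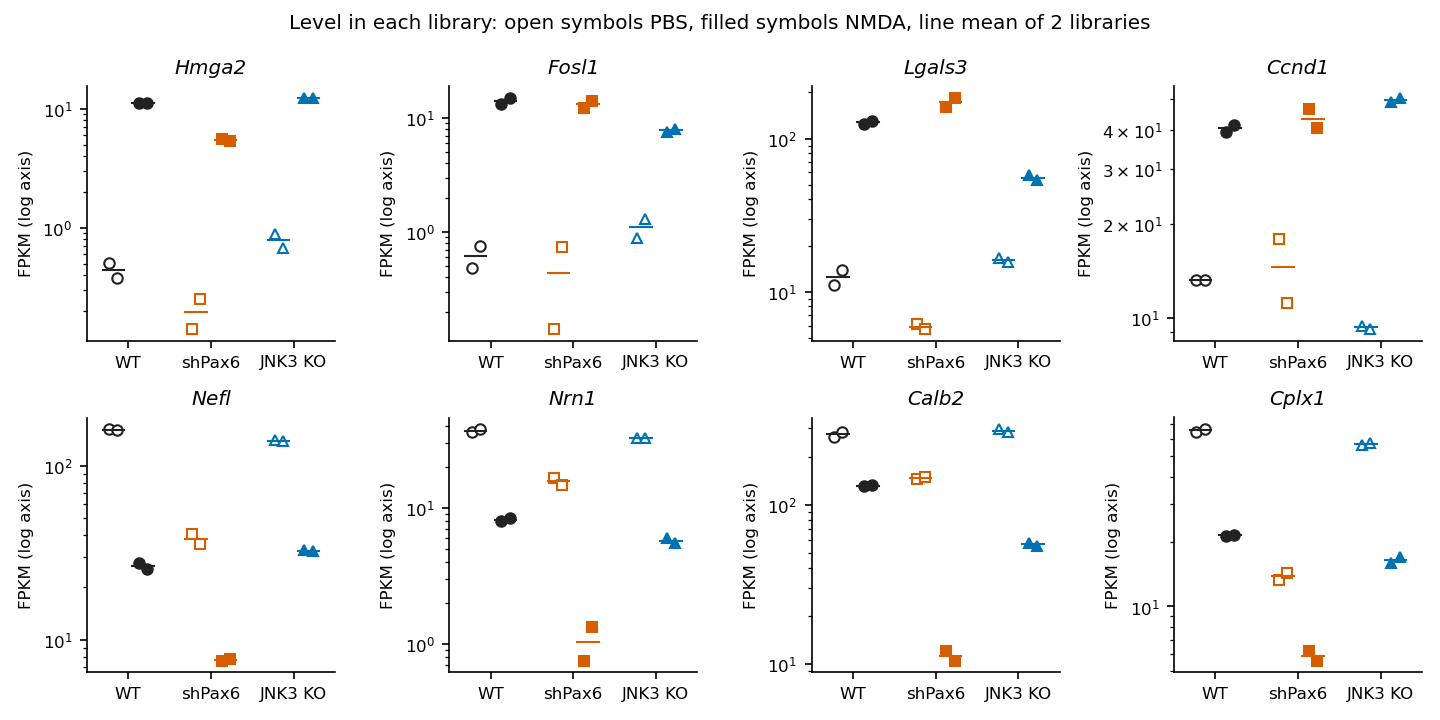
FPKM (log axis) of 4 shared rises (top) and 4 shared falls (bottom) in each of the 12 libraries, open symbols for PBS, filled symbols for NMDA and lines for the mean of 2 libraries. As in all shared genes, filled and open symbols never overlap within a genotype, and the shPax6 PBS libraries start lower than the WT PBS libraries for Nefl, Nrn1, Calb2 and Cplx1.

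Hmga2 and Fosl1 had the largest shared rises by their weakest genotype. Hmga2, an architectural chromatin protein of embryonic and proliferating cells (chromosome 10, 120361275 to 120476469), was listed at 0.51 and 0.38 against 11.12 and 11.21 FPKM in WT, at 0.14 and 0.25 against 5.58 and 5.38 FPKM in shPax6, and at 0.89 and 0.68 against 12.4 and 12.26 FPKM in JNK3 KO retinas. It went from under 1 FPKM to over 5 FPKM in every genotype. With effects of 4.38, 4.27 and 3.82 it had the largest shared rise by its weakest genotype (blocked 4.16, standard error 0.20, adjusted p = 1.6e-06), and the genotypes did not differ by the interaction test (adjusted p = 0.39). Myc, the growth-promoting transcription factor, was listed at 1.48 to 1.75 against 11.55 to 12.85 FPKM in WT, 0.73 to 0.81 against 6.04 to 7.47 FPKM in shPax6 and 1.53 to 1.83 against 7.6 to 8.45 FPKM in JNK3 KO retinas, a blocked rise of 2.67 (standard error 0.18, adjusted p = 3.1e-05). Ccnd1, cyclin D1, which drives entry into the cell cycle, had its largest rise in JNK3 KO retinas. It was listed at 13.24 and 13.25 against 39.35 and 41.48 FPKM in WT, at 17.86 and 11.14 against 46.38 and 40.37 FPKM in shPax6, and at 9.46 and 9.2 against 48.94 and 50.6 FPKM in JNK3 KO retinas. The effects were 1.60, 1.61 and 2.40 (blocked 1.87, adjusted p = 0.00016, interaction adjusted p = 0.034). It was the 1 gene called of 15 cell cycle genes tested, a list whose median was 0.30.

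Fosl1 encodes FRA1, a Fos-family partner of Jun proteins in AP-1 (chromosome 19, 5447547 to 5455946). It was listed at 0.48 and 0.76 against 13.2 and 15.13 FPKM in WT, at 0.14 and 0.74 against 12.21 and 14.19 FPKM in shPax6, and at 0.89 and 1.31 against 7.6 and 8.0 FPKM in JNK3 KO retinas. The rise was present in JNK3 KO retinas too, with effects of 4.33, 4.88 and 2.74 (blocked 3.99, standard error 0.39, adjusted p = 0.0003), and the difference between genotypes did not pass the test (interaction adjusted p = 0.059). Of 20 AP-1 and immediate early genes 5 were called higher and 2 were shared, Fosl1 and Egr1. Egr1, a zinc finger factor induced by activity, had effects of 0.90, 2.79 and 0.45, and its blocked rise of 1.38 (adjusted p = 0.021) was not called under TPM (1.18) or without shPax6 PBS replicate 1 (1.21). Jun and Fos themselves stood at 0.48 and 0.62 in the blocked fit, with JNK3 KO values of 0.10 and -0.15, and were not called. The list medians were 0.42, 1.36 and 0.11.

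Stress response genes were shared in part. Gdf15, a secreted stress cytokine, was listed at 0.35 and 0.49 against 1.95 and 2.34 FPKM in WT, at 0.95 and 1.41 against 7.74 and 6.17 FPKM in shPax6, and at 0.33 and 0 against 1.94 and 2.84 FPKM in JNK3 KO retinas. In JNK3 KO retinas 1 PBS library was listed at 0, so the JNK3 KO effect of 3.56 depends on the added 0.1 (blocked 2.72, adjusted p = 0.0018), and Gdf15 was not shared under each of the other scalings. Phgdh, the first enzyme of serine synthesis, had effects of 2.13, 1.203 and 1.54 (blocked 1.62, adjusted p = 0.00057). These were the 2 shared genes of 19 in the integrated stress response list, where 5 were called higher. Hmox1, heme oxygenase 1, was listed at 10.39 to 10.76 against 42.94 to 43.69 FPKM in WT, 5.84 to 7.74 against 113.85 to 115.41 FPKM in shPax6 and 15.14 to 17.04 against 36.27 to 37.53 FPKM in JNK3 KO retinas (blocked 2.43, adjusted p = 0.0028). Ftl1, the ferritin light chain that stores iron, had effects of 2.13, 1.67 and 0.58 (blocked 1.46, adjusted p = 0.0024) and was not called under quantile normalization. Bag3, a co-chaperone of HSP70, rose by 1.11, 1.97 and 1.01 (blocked 1.36, adjusted p = 0.00084), as the 1 shared gene of 15 heat shock and chaperone genes. Phlda3, a p53 target that restrains AKT, rose by 2.17, 0.68 and 0.55 (blocked 1.13, adjusted p = 0.015), but was not called under TPM (0.93), the length correction (0.87) or without WT NMDA replicate 1 (0.99) or WT PBS replicate 2 (0.98). It was the 1 called gene of 20 p53 targets.

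Some genes of reactive glia and phagocytes were also among the shared rises. Lgals3, galectin 3, a sugar-binding protein of activated microglia and macrophages (chromosome 14, 47367751 to 47386160), was listed at 11.05 and 13.75 against 124.31 and 130.3 FPKM in WT, at 6.12 and 5.67 against 159.71 and 185.12 FPKM in shPax6, and at 16.69 and 15.69 against 57.86 and 53.25 FPKM in JNK3 KO retinas. Every NMDA library was above every PBS library of the 12. Its effects of 3.36, 4.84 and 1.77 (blocked 3.32, adjusted p = 0.00057) differed between genotypes (interaction adjusted p = 3e-06). Lgals1, galectin 1, had effects of 3.39, 2.55 and 1.61 (blocked 2.52, adjusted p = 0.00022). Of 19 phagocyte activation genes 7 were called higher and 5 shared: Lgals3, Spp1, Trem2, Cd63 and Cd68. Spp1, osteopontin, was listed at 25.1 to 27.01 against 66.09 to 71.27 FPKM in WT, 10.9 to 12.36 against 167.6 to 178.37 FPKM in shPax6 and 30.82 to 34.56 against 84.4 to 84.44 FPKM in JNK3 KO retinas. Trem2, a lipid-sensing receptor of microglia, had effects of 2.34, 1.81 and 1.04 (blocked 1.73, adjusted p = 0.00096). Of 12 homeostatic microglia genes, 15 neutrophil genes and 17 MHC and antigen presentation genes, 0 were shared by limma's test, also at an unadjusted p under 0.05, and in JNK3 KO retinas the medians of these lists were -0.37, -2.27 and -0.34. The summed level of the phagocyte list went from 1126 to 1161 FPKM to 2296 to 2362 FPKM in WT, from 880 to 931 FPKM to 2798 to 2912 FPKM in shPax6, and from 1144 to 1197 FPKM to 1322 to 1343 FPKM in JNK3 KO retinas. The summed level of 18 neutrophil genes, of which 15 were tested, moved with it in WT (256.5 to 282 FPKM after PBS, 2029 to 2076 FPKM after NMDA) and in shPax6 (9.65 to 14.2 and 96.9 to 111 FPKM), but went the other way in JNK3 KO retinas (188 to 205 and 20.54 to 21.02 FPKM).

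Vim, the intermediate filament of Müller glia, was listed at 338.96 and 367.97 against 1154.12 and 1169.43 FPKM in WT, at 219.64 and 195.37 against 532.96 and 600.02 FPKM in shPax6, and at 345.74 and 358.4 against 635.45 and 653.86 FPKM in JNK3 KO retinas. Its blocked rise of 1.35 (standard error 0.14, adjusted p = 0.00036) was 0.90 and not called under quantile normalization. Nes, nestin, a filament of progenitors and reactive glia, rose by 1.35, 1.96 and 1.04 (blocked 1.45, adjusted p = 0.00043), and Emp1, a membrane protein, by 0.75, 3.27 and 1.68 (blocked 1.90, adjusted p = 0.0087), though Emp1 was not shared under each of the other scalings. They were the 3 shared genes of 19 for reactive gliosis, of which 4 were called higher. The list as a whole did not rise in each genotype, with medians of -0.02 in WT, 1.11 in shPax6 and -0.14 in JNK3 KO retinas. On their own, 8, 18 and 6 of its genes passed the test higher in these genotypes, against 26.0%, 19.1% and 4.33% of all genes tested. Lower were 8, 0 and 6 of its genes, against 33.8%, 11.0% and 6.1%. Gfap, the classical marker of reactive glia, was not shared: its effects were -0.52, 1.11 and -0.25. Of 14 Müller glia identity genes, Abca8a alone was called, and it fell by 1.97, 1.09 and 0.82 (blocked -1.29, adjusted p = 0.0021).

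Cytokine and chemokine lists each held 1 shared rise. Clcf1, a cytokine of the IL-6 family that acts through the CNTF receptor, was listed at 5.15 and 5.85 against 29.11 and 31.43 FPKM in WT, at 1.47 and 1.66 against 14.47 and 14.53 FPKM in shPax6, and at 5.04 and 4.25 against 15.64 and 13.1 FPKM in JNK3 KO retinas. It was the 1 shared gene of 16 for gp130 cytokines and JAK-STAT3 signaling (blocked 2.39, standard error 0.22, adjusted p = 0.00021), where 4 were called higher. Of 21 chemokine and receptor genes 5 were called higher and 2 lower. Ccl6 was shared among the rises, with effects of 2.10, 5.18 and 1.11 (adjusted p = 0.0088), and Cx3cl1, the neuronal chemokine that microglia sense, among the falls, with effects of -0.93, -1.37 and -0.70 (adjusted p = 0.0011). Cx3cl1 lies on the 2-fold limit and was no longer called without shPax6 NMDA replicate 1 (-0.91) or shPax6 PBS replicate 2 (-0.92). Of 20 NF-kB subunit and target genes 4 were called higher and 0 shared by limma's test (1 at an unadjusted p under 0.05), with medians of 1.13 in WT, 1.36 in shPax6 and -0.17 in JNK3 KO retinas.

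Other large rises belonged to no list. Layn, layilin, a hyaluronan receptor, had nearly equal effects of 2.36, 2.40 and 2.68 (blocked 2.48, adjusted p = 0.00057), although its 2 NMDA libraries differed from each other, with 8.92 and 3.68 FPKM in WT and 2.56 and 7.38 FPKM in shPax6. Thbd, thrombomodulin, an anticoagulant receptor, rose by 3.13, 2.69 and 2.31, and Hsd17b2, which inactivates sex steroids, by 2.34, 2.78 and 2.17 (blocked 2.43, adjusted p = 6.3e-05). Tuba1c, an alpha-tubulin, was listed at 9.75 and 11.61 against 110.58 and 104.09 FPKM in WT, at 2.17 and 3.67 against 37.53 and 33.88 FPKM in shPax6, and at 14.51 and 8.25 against 44.54 and 40.94 FPKM in JNK3 KO retinas. It shares sequence with other alpha-tubulin genes, so that estimated abundances may be split between them. Fkbp11, a peptidyl-prolyl isomerase of the endoplasmic reticulum, rose by 3.69, 2.25 and 1.71 (blocked 2.55, adjusted p = 0.00088).

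Of 85 ribosomal protein genes tested 17 were called higher and 7 shared, with medians of 2.09 in WT, 0.48 in shPax6 and 0.04 in JNK3 KO retinas. Rplp0, a protein of the ribosomal stalk, was listed at 279.84 and 288.47 against 1037.94 and 981.24 FPKM in WT, at 265.78 and 242.21 against 511.55 and 456.36 FPKM in shPax6, and at 168.25 and 153.13 against 255.18 and 250.56 FPKM in JNK3 KO retinas. These genes are short (median spliced length 1734 bases), have many pseudogenes that can share reads, and rose most in the WT libraries with the large FPKM sums. Rplp0 lost its call under TPM (0.94), the length correction (0.88) and quantile normalization (0.71), Rps2 under quantile normalization (0.73), and Rpl12 under TPM (0.996) and quantile normalization (0.68). Rpl12 (blocked 1.198, adjusted p = 0.029) lost it without any 1 of the WT libraries (1.02 to 1.04) and without shPax6 PBS replicate 2 (1.26), and all 3 lost it without the 4 WT libraries (0.79, 0.77 and 0.52). Cryab, a small heat shock protein of lens and stressed retina, rose by 1.78, 2.24 and 0.69 (blocked 1.57, adjusted p = 0.0011), and was the 1 shared gene of 15 lens genes tested. The list medians were 1.52 in WT, 0.27 in shPax6 and 0.53 in JNK3 KO retinas. The summed level of the 16 listed genes, Cryab included, went from 282 to 285 FPKM to 859 to 875 FPKM in WT, from 232 to 241 FPKM to 655 to 660 FPKM in shPax6 and from 290 to 313 FPKM to 451 to 464 FPKM in JNK3 KO retinas. Cryab alone was listed at 106.1 to 111.55 against 364.37 to 381.12 FPKM in WT, 98.3 to 103.99 against 477.01 to 479.22 FPKM in shPax6 and 108.7 to 108.84 against 175.19 to 176.85 FPKM in JNK3 KO retinas. The part of lens tissue in this rise was not tested.

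**Figure D4:**
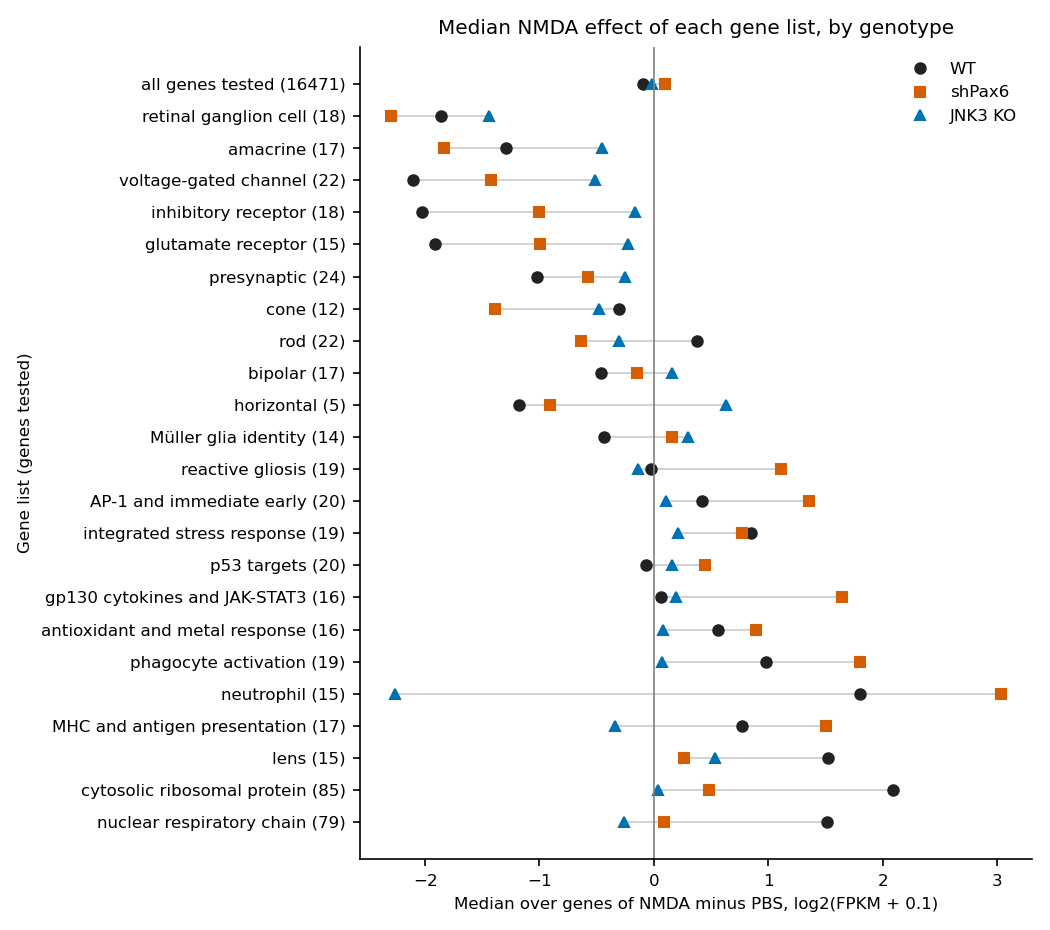
Median NMDA effect (log2 of FPKM + 0.1) of 23 gene lists and of all genes tested in each genotype, with the number of genes tested in parentheses. The RGC, amacrine, channel, receptor and presynaptic lists lie below 0 in all 3 genotypes, whereas neutrophil genes stand at 3.04 in shPax6 and -2.27 in JNK3 KO retinas.

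Over all 43 lists, 51 of the 239 shared genes belonged to a list and 188 to none. With FPKM rescaled to TPM the median of all genes moved to -0.20, and list medians moved with it. The RGC, amacrine, channel and presynaptic medians remained below 0 and the phagocyte median above 0 under each of the 4 other scalings.

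The size of a shared change often differed between genotypes. An interaction test with 2 terms gave an adjusted p under 0.05 for 175 of the 239 shared genes (73.2%), for 544 of the 814 called genes (66.8%) and for 9533 of all genes tested (57.9%). Of the 12 largest shared rises among protein-coding genes with no group mean under 0.1 FPKM, 7 did not pass it (Hmga2, Fosl1, Layn, Thbd, Myc, Hsd17b2 and Gdf15), which does not show that the genotypes responded alike. Another 2 called genes moved significantly in the opposite direction in JNK3 KO retinas. S100a11, a calcium-binding protein, was listed at 90.13 to 91.23 against 330.36 to 335.98 FPKM in WT and 32.65 to 36.03 against 135.89 to 158.07 FPKM in shPax6, but at 101.93 to 110.24 against 81.08 to 84.86 FPKM in JNK3 KO retinas. Mt1, metallothionein 1, which binds zinc and copper, had effects of 2.22, 1.51 and -0.26. The blocked rises of S100a11 and Mt1, 1.205 and 1.16 (adjusted p = 0.045 and 0.044), were lost without any 1 of the WT or shPax6 libraries, at 1.07 to 1.12 and 1.0 to 1.12, and under TPM, quantile normalization and the length correction.

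Genes at the center of the study were not shared by the rule. Pax6 was lower in all NMDA than in all PBS libraries of each genotype, with effects of -1.68, -0.57 and -0.51, but its blocked difference of -0.92 (standard error 0.18, adjusted p = 0.0091) missed the 2-fold limit. The difference was beyond that limit under TPM (-1.12) and quantile normalization (-1.08), but not under 75th-percentile scaling (-0.98) or the length correction (-0.61). Bax, the pore-forming apoptosis effector, had effects of 1.62, 0.42 and -0.01, and Gadd45a, a DNA damage response gene, of 1.18, 0.65 and -0.35. Neither passed the blocked test (adjusted p = 0.082 and 0.16). Of 26 pro-apoptotic BCL2 family and caspase genes 1 was called higher, Bik, and 0 were shared by limma's test, also at an unadjusted p under 0.05. Mapk10 had effects of -2.65, -0.81 and 0.07 (blocked -1.13, adjusted p = 0.09), and its blocked fall was called without JNK3 KO NMDA replicate 2 (-1.41).

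Promoter sequences were searched for AP-1 letters, among others, since the shared rises include the AP-1 subunit gene Fosl1. The reference table (RefSeq, GRCm38.p6, 250 bases before to 50 bases after a start) held a window for 28 of the 44 genes that rose over 2-fold in each genotype (63.6%), too few to compare shares, so that check is void. The AP-1 letters TGANTCA, read on both strands, were in 7.81% of all 32851 windows, in 6 of the 38 windows of these 28 genes and in 2 of the 51 windows of the 32 genes with one among the 57 that fell over 2-fold in each, those of Rph3a and Arpp21. N was read as any base, which is looser than the AP-1 consensus with C or G there. Bag3 and Trem2, described above, are among the 5 genes that rose and hold the letters. The match is TGACTCA in the Bag3 window, but TGAATCA, outside that consensus, in the Trem2 and Rph3a windows. The windows of Bag3 and Trem2 are shown, with the matched letters in capitals. They start 20 bases before the Bag3 start (chr7:128523333-128523632, plus strand) and 9 bases before the Trem2 start (chr17:48346151-48346450, plus strand).
Bag3: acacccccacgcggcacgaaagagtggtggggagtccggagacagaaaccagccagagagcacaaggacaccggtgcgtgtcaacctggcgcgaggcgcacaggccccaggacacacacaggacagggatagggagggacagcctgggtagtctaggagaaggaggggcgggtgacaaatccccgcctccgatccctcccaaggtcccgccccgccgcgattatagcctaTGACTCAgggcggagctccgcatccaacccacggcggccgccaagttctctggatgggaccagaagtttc
Trem2: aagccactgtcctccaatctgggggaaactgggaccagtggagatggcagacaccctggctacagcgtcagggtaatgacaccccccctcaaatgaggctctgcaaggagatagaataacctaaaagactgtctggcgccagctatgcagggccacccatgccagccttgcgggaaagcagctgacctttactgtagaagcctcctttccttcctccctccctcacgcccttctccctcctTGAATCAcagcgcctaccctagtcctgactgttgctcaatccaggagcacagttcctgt
The searches for TTCNNNGAA (STAT), TGACGTCA (CRE) and the kappa B motif matched 0 windows of the 28 genes, and 8.30%, 1.79% and 0.411% of all windows. A match describes letters and not a bound site, and the absence of one says nothing about the factor.

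The count of shared genes rested most on the JNK3 KO libraries. Leaving out 1 of them at a time left 103 to 117 shared genes in place of 239 (111 and 103 without NMDA replicate 1 and 2, 117 without either PBS replicate), with the lone library assumed to vary like the other groups. The total called in the blocked fit moved most without a WT library, with 504 and 489 genes without WT PBS replicate 1 and 2, 538 and 531 without WT NMDA replicate 1 and 2.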

How the data were processed

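Poly(A) RNA of retina was sequenced as paired ends in 12 libraries. Per the labels, the authors aligned reads with STAR 2.7.1a to GRCm38.p6, estimated abundances with RSEM 1.3.3 and used edgeR 3.36.0 in R 4.1.0. They deposited FPKM per gene and per transcript, of which the values per gene were used here. FPKM are relative to gene length and to the mapped fragments of the library, so a rise of abundant short transcripts lowers the values of all others, and they hold no counts, so no count test or counting error was possible. The depth is therefore unknown, and precision was judged from replicates. Within a group, libraries differed by a median of 0.11 to 0.25 (absolute, log2), and 2.77% to 3.64% of genes had identical values. No libraries were counted as 1 sample.

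All tests used log2(FPKM + 0.1), so fold changes understate the change of low genes. A filter kept genes with a group mean above 1 FPKM. An additive model of genotype and treatment (8 residual degrees of freedom) gave the blocked effect, and a model of 6 group means (6 residual degrees of freedom) gave the effect in each genotype and the interaction, with limma 3.58.1 (lmFit, eBayes with intensity trend) in R 4.3.3 (package data.table, version 1.17.8). Adjusted p-values are Benjamini-Hochberg values over all genes tested. Coordinates and lengths are from GENCODE M21 (GRCm38). The fits were also run on simulated libraries with independent noise, without a length trend or a shift of FPKM sums. Such a run cannot show how the fits behave where these are present, as here. Figures were drawn with matplotlib 3.10.9 in Python 3.11.15.

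The members, lists and tests were chosen with earlier results of these data known. Named genes were, among protein-coding shared genes over 2-fold in each genotype with a mean above 1 FPKM and no group mean under 0.1 FPKM, the 12 with the largest and the 12 with the largest negative effect by their weakest genotype, up to 3 shared genes per list, Pax6, Mapk10, Bax and Gadd45a, and called genes with 1 genotype significantly opposite. Other genes were named after their values were seen. Results for some genes that the rule selected are not reported here. The 43 gene lists, composed from general knowledge, covered AP-1 and immediate early, integrated stress response, p53, pro- and anti-apoptotic, inflammasome and necroptosis, NF-kB, gp130 cytokine, gliosis, antioxidant, heat shock, cell cycle, cholesterol, axon injury, matrix, interferon, MHC, complement, chemokine, immune cell, retinal cell type, receptor, channel, presynaptic, RPE, lens, cornea, erythrocyte, endothelium, ribosomal and respiratory chain genes. Alternatives were other pseudocounts, filters, scalings, a length correction (lowess span 0.3), no intensity trend, a replicate block, other rules for a shared call, and each library or genotype left out. The values per transcript were not used here.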

Additional observations from a re-analysis of the deposited data

Results flagged for a closer look

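The NMDA effect differed between genotypes by limma's interaction test (adjusted p under 0.05) for 544 of the 814 called genes and for 175 of the 239 shared genes. Over all genes tested 9533 (57.9%) passed it. The interaction adjusted p of the named genes that passed is given here, and the effects of most stand in the report.

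Among shared falls the values were 0.00226 for Nrn1, 0.00993 for Nefl, 0.0491 for Trarg1, 0.00561 for Elavl2, 0.0284 for Col25a1, 0.0168 for Rgs4, 0.0426 for Slc5a7, 0.0108 for Abca8a, 8.4e-07 for Calb2, 9.25e-06 for Arr3 and 2.99e-06 for Opn1sw. For synaptic and channel genes they were 0.00684 for Cplx1, 0.000228 for Cplx2, 0.00663 for Rph3a, 0.0024 for Scn3b and 0.0129 for Scn2b. Calb2, Arr3, Opn1sw and Cplx2 fell most in shPax6 retinas, Col25a1 most in WT, and Cplx1 most in JNK3 KO retinas.

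Among shared rises the values were 0.0114 for Tuba1c, 3e-06 for Lgals3, 0.0181 for Fkbp11, 8.55e-06 for Lgals1, 0.000681 for Clcf1, 4.65e-06 for Egr1, 0.000211 for Phlda3, 0.0048 for Bag3, 0.00532 for Nes, 0.000321 for Vim, 0.0019 for Emp1, 1.2e-06 for Spp1, 0.0263 for Trem2, 2e-05 for Ccl6, 5.11e-06 for Hmox1, 2.23e-06 for Ftl1, 0.0336 for Ccnd1 and 1.18e-06 for Cryab. For ribosomal protein genes they were 3.58e-05 for Rplp0, 4.79e-06 for Rps2 and 6.79e-07 for Rpl12, each with the largest effect in WT, where the FPKM sums stand apart. Lgals3, Spp1, Ccl6, Hmox1, Emp1 and Egr1 rose most in shPax6 retinas, and Ccnd1 most in JNK3 KO retinas.

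Outside the shared genes the values were 1.8e-05 for Pax6, 0.00412 for Mapk10, 0.000213 for Bax, 0.000591 for Gadd45a, 1.11e-06 for S100a11 and 6.79e-07 for Mt1. Mapk10 is the gene deleted in JNK3 KO retinas.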

How the results depend on the processing

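All 239 shared genes kept their direction under every alternative in which they were tested, except 1 gene without shPax6 PBS replicate 1 and 1 without the shPax6 libraries (5 were not tested under the filter on the mean of all libraries). Calls were less stable than directions. The 814 called genes (302 higher, 512 lower) were 1493 (651 and 842) with 6 group means, 507 with a pseudocount of 1 (273 lower), 428 without the WT libraries (174 and 254), 311 without the shPax6 libraries (98 and 213) and 1967 without the JNK3 KO libraries (981 and 986). Under TPM 171 were called higher. The 239 shared genes (98 higher, 141 lower) were 386 at an unadjusted p in each genotype (150 and 236), 146 with the largest of the 3 p-values adjusted over all genes (75 lower), 651 where separate libraries took the place of the p (222 and 429), 153 (54 higher) where all 4 other scalings had to give the call, an alternative chosen after seeing the data, and 1176 (653 and 523) without the JNK3 KO libraries. Under TPM 61 were shared and higher. The 101 genes over 2-fold in each (44 higher, 57 lower) were 66 with a pseudocount of 1 (34 lower), 29 higher under TPM, 706 (362 and 344) without the JNK3 KO libraries, and 182 (125 lower) without the shPax6 libraries. The 544 called genes with an interaction were 1041 with 6 group means, 346 without a filter, 919, 115 and 159 without the JNK3 KO, WT and shPax6 libraries. The fits without a genotype ask for agreement of 2 genotypes only.

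Leaving out 1 library at a time gave 489 to 965 called genes (180 to 402 higher, 309 to 563 lower), 103 to 292 shared genes (48 to 106 higher, 55 to 196 lower), 50 to 121 over 2-fold in each (24 to 45 higher, 25 to 76 lower) and 264 to 574 with an interaction. The low counts came without any 1 of the 4 WT libraries for called genes (489 to 538) and for those with an interaction (264 to 310), and without any 1 of the 4 JNK3 KO libraries for shared genes (103 to 117) and those over 2-fold in each (50 to 56), while without shPax6 PBS replicate 2 the called rises were 197. With a group left at 1 library, that library is assumed to vary like the others. Replicate numbers did not pair the samples: the correlation of deviations between same-numbered libraries of a genotype was -0.01, 0.02 and -0.10. A replicate block gave 660 called genes, 221 shared and 95 over 2-fold in each. Of the comparisons of named genes with an alternative, 1479 kept their call, 73 lost it and 7 gained it, with 0 changes of sign among called genes. Of those of list medians 823 moved by less than the spread between libraries and 317 by more. With 2 pools per group and no counts, the depth behind low genes cannot be judged.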

Other observations

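Besides Ccl6, 4 of the 21 chemokine and receptor genes rose in the blocked fit without being shared. Ccl2, Ccl3, Ccl4 and Ccl7, which attract monocytes and other leukocytes, had WT effects of 4.84, 3.49, 4.52 and 4.29 and shPax6 effects of 4.50, 3.48, 4.04 and 4.79, against 0.53, 0.13, 1.10 and 0.86 in JNK3 KO retinas, and these genes did not pass the test in every genotype. Cxcl13, a B cell chemokine, was a shared fall with effects of -1.61, -3.07 and -2.17 (limma, adjusted p = 0.0027), and was left out of the named genes because a group mean lay under 0.1 FPKM. The matrix gene Plaur, the urokinase receptor, was called at 2.65 but not shared, with a JNK3 KO effect of 1.01.

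Of the lists not described in the report, matrix remodelling (17 genes tested, 3 called higher), monocyte and macrophage (16, 2 higher), complement (15, 2 higher) and interferon-stimulated genes (24, 2 higher) held 0 shared genes by limma's test, and at an unadjusted p under 0.05 they held 1, 1, 1 and 0. The anti-apoptotic list (12 genes, 2 higher) shared Bag3, and the axon injury list (14 genes, 2 higher and 1 lower) shared Nrn1, both of which stand in another list. The antioxidant and metal list (16 genes, 4 higher) shared Hmox1 and Ftl1. Cholesterol synthesis had 1 of 16 called lower and 0 shared (1 at the unadjusted p). Inflammasome and necroptosis (11), endothelium (12), T, B and NK cell (8), RPE (7), cornea (1), erythrocyte (5), nuclear respiratory chain (79) and mitochondrially encoded genes (13) had 0 called and 0 shared by limma's test, and at the unadjusted p 1, 1, 1, 2, 0, 3, 1 and 0 called in that order and 0 shared. The summed erythrocyte level was 97.3 to 107 FPKM in WT PBS and 613 to 650 FPKM in WT NMDA libraries, but 123 to 126 FPKM and 69.4 to 79.7 FPKM in JNK3 KO retinas.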
